A study of Homo sapiens with 6 samples.

Results

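The endoplasmic reticulum (ER) folding and quality control genes comprised 36 genes chosen by name from 50868 in the table, and each name matched exactly 1 row. They were 7 chaperones and lectins, 8 co-chaperones and cofactors, 7 isomerases, 10 genes of ER-associated degradation (ERAD) and 4 stress sensors. The transcription factor gene XBP1 was counted with the sensors. Of the 36 genes, 35 had enough counts to test. DERL3, which encodes an ERAD channel protein, had 0, 0 and 1 counts in the siZNF514 libraries and 0 in each nc library.

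Proteins that enter the secretory pathway fold in the ER lumen with the help of HSPA5 (also called BiP), HSP90B1 and the lectins calnexin and calreticulin, while disulfide isomerases form and rearrange their cysteine bridges. Chains that fail to fold are drawn back to the cytosol and degraded by ERAD. The sensors IRE1 (gene ERN1), ATF6 and PERK (gene EIF2AK3) detect unfolded chains and raise chaperone, isomerase and ERAD genes in the unfolded protein response, and HSPA5 itself binds the sensors and is one of the classical targets of ATF6.

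RNA was sequenced from KYSE-150, an established cell line from a human oesophageal squamous cell carcinoma. One group, siZNF514, carries a genotype label of ZNF514 knockout by siZNF514, and its titles bear the letters si. The other, nc, has no genotype label and is called wild type in the series text. Each group had 3 libraries, with 13262363 to 14318909 counts in siZNF514 and 12175259 to 13696180 in nc. The sources used here do not give whether nc cells received a control siRNA, which siRNA sequences were used, or whether each library had its own culture. The spread behind each p-value is therefore that of these libraries and may be technical. ZNF514 itself had 64, 82 and 63 counts in siZNF514 against 239, 273 and 261 in nc (log2 fold change -1.87, SE 0.14, edgeR adjusted p = 5.77e-05), so transcript was reduced and not absent.

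Of 7 squamous markers, 6 were expressed well enough to test, and SOX2 was near 0 (0.0282 FPKM in siZNF514 and 0.0541 in nc, means). Their summed level was 310 to 333 FPKM in siZNF514 and 397 to 419 in nc, most of it from SFN, which did not pass (-0.07). The keratin genes KRT6A (-2.16), KRT14 (-1.23) and KRT5 (-0.52) and the adhesion gene DSG3 (-0.69) fell, beside -2.02 for HSPA5, and TP63 did not pass (-0.17). The part of these marker changes in the results below was not tested. Summed markers reached 0.897 FPKM for fibroblasts and 0.295 for endothelium in any library, those of secretory epithelium 2.67, MUC5AC and CDX2 were at 0 counts throughout, and the leukocyte sum of 10 to 11.1 FPKM in siZNF514 and 12.4 to 15.2 in nc came almost wholly from the lysosomal gene CD68. The highest fibroblast and secretory sums were both in siZNF514 replicate 3, which stood apart with 49 counts of COL1A2, 33 of DCN, 35 of LUM and 21 of TFF1, against 0, 0, 5 to 7 and 0 in the other siZNF514 libraries and at most 4, 3, 21 and 1 in nc. Without it, 17 of the 35 tested ER genes were lower and 3 higher, against 21 and 3 with it, and HSPA5 was at -2.02 on the log2 scale either way. In bulk RNA, fewer cells expressing a gene and less of its RNA per cell cannot be told apart.

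HSPA5 fell 4.04-fold in siZNF514, the lowest fold change of the set, and 20 further genes fell, among them 7 co-chaperones and cofactors, the ERAD scaffold and channel genes HERPUD1 and DERL2, and the isomerase PDIA4. The isomerases PPIB and PDIA6 did not pass. In all, 21 of 35 tested genes fell, 3 rose and 11 did not pass. A gene passed where its p-value from edgeR's quasi-likelihood test, Benjamini-Hochberg adjusted over all 14250 genes tested, was under 0.05. Among all genes tested, 25.1% were lower and 25.5% higher by the same rule. The median log2 fold change, siZNF514 over nc, was -0.22 over the 35 genes and -0.01 over all genes tested. Among the 35, 3 fell 2-fold or more (HSPA5, DERL2 and DNAJC3), against 7.21% of all genes, and no gene of the set rose 2-fold, against 2.08%. The highest siZNF514 library was below the lowest nc library for 21 of the 35 genes, and the reverse held for 4, against 30.3% and 30% of all genes tested.

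**Figure D1:**
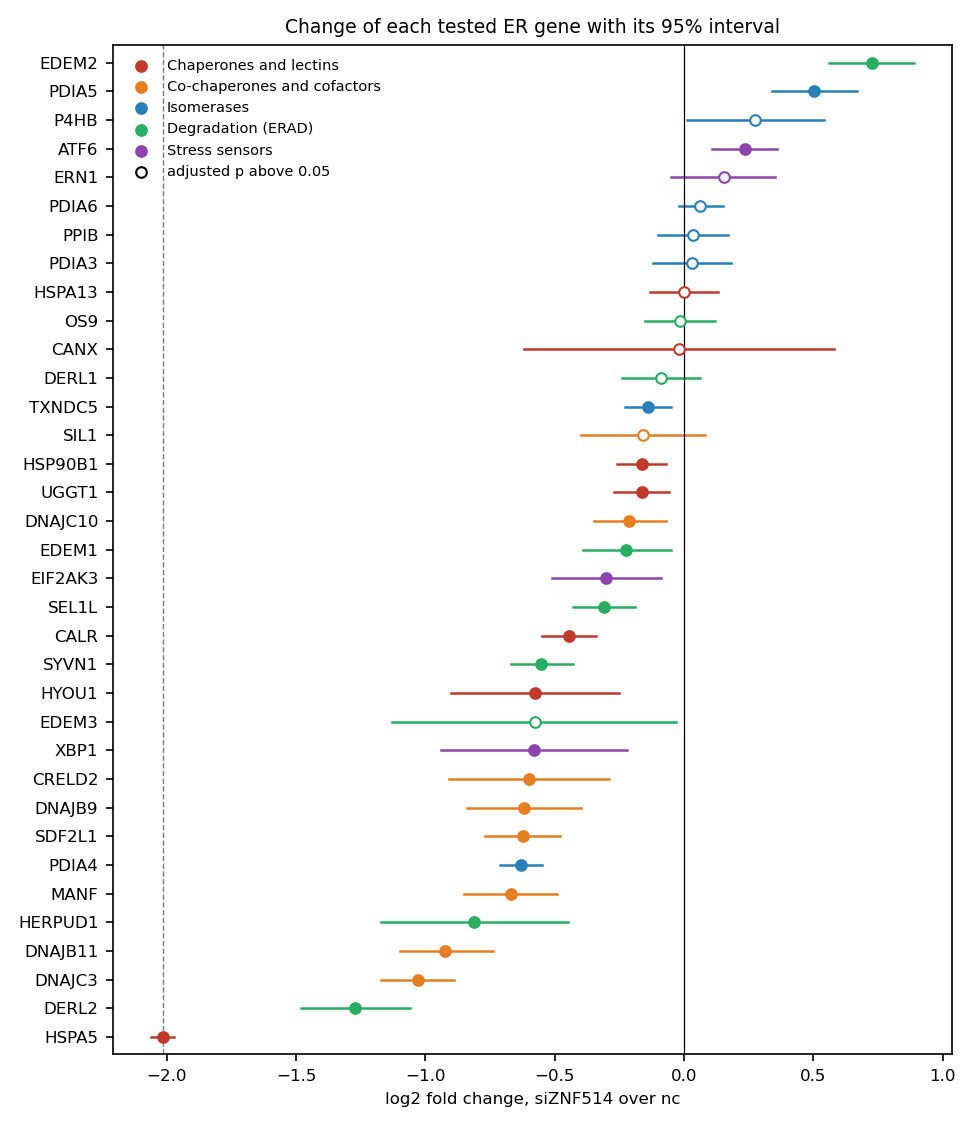
Log2 fold change (siZNF514 over nc, x axis) of the 35 tested ER genes, ordered from the highest at the top, with 95% intervals from the edgeR fit as lines. Filled points passed an adjusted p of 0.05 and open points did not, and the dashed line marks HSPA5 at -2.02, left of every other gene.

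HSPA5 (ENSG00000044574; chromosome 9, 125234853 to 125241330, minus strand, hg38) encodes the Hsp70 chaperone of the ER. It was at 843, 851 and 861 CPM (counts scaled to a common library size with TMM factors) in the siZNF514 libraries and at 3410, 3463 and 3457 CPM in the nc libraries. The replicates lay within a few percent of each other and the groups were far apart. The means were 852 ± 8.9 CPM in siZNF514 and 3444 ± 28.9 CPM in nc (SD, n = 3 each), a 4.04-fold lower level. The 95% interval of the log2 fold change was -2.06 to -1.97, and HSPA5 had the smallest p-value of the 14250 genes in this test. By p-value it ranked 2nd in the limma fits on FPKM and without nc replicate 2. In the DESeq2 Wald test its adjusted p was too small to tell from 0, where genes tie, so no rank is given. Of 44 genes at 1000 CPM or more in nc, HSPA5 had the lowest log2 fold change, and the next lowest, in the mitochondrially encoded gene MT-ND1, was -0.86. Per length, HSPA5 ranked 122nd among tested genes in siZNF514 and 21st in nc by mean FPKM (fragments per kilobase of gene length and scaled to library total). Its pseudogene HSPA5P1, counted as a gene of its own, had 4 counts on average in siZNF514 and 33.7 in nc, or 0.0662% as many as HSPA5.

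The promoters of 4 genes are shown because they carry the elements through which ATF6 and XBP1 act on such genes, while the genes changed by very different amounts. They are RefSeq windows on GRCh38.p14, from 250 bases before to 50 after a start site, 5′ to 3′ on the gene's strand. Capitals mark the fixed letters of a full ER stress response element (ERSE, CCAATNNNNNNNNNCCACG, whose CCAAT part is bound by NF-Y and whose CCACG part by ATF6 or XBP1) or of the shorter ERSE-II (ATTGGNCCACG), searched on both strands. The windows were chr9:125241294-125241593 (minus strand) for HSPA5, chr12:103930160-103930459 (plus) for HSP90B1, chr22:28800520-28800819 (minus) for XBP1 and chr16:56931892-56932191 (plus) for HERPUD1.
HSPA5: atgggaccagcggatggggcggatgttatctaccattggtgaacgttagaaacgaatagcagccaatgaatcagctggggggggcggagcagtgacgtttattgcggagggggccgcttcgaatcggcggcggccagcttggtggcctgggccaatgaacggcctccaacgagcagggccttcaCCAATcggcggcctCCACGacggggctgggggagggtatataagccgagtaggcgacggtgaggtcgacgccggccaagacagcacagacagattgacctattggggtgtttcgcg
HSP90B1: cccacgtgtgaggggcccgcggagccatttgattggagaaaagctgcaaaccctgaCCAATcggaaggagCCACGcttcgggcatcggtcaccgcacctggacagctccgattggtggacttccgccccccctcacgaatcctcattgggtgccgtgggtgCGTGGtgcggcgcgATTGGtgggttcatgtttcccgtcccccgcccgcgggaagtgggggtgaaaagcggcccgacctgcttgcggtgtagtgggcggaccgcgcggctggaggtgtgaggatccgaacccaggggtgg
XBP1: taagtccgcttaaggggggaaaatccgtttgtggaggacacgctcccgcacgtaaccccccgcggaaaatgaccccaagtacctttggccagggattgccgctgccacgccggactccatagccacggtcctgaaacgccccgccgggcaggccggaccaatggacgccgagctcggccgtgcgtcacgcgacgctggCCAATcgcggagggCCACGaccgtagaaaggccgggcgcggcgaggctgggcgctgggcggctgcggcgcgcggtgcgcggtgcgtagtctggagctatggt
HERPUD1: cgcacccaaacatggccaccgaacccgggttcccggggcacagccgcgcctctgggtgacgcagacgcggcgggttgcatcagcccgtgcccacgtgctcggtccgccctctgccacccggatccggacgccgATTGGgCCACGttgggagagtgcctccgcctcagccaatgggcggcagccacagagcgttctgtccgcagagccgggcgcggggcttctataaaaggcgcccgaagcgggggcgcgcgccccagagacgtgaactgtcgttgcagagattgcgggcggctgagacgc

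Of the 36 genes, 33 matched a RefSeq window. An ERSE was found for 7 of these 33 (21.2%) and for 25 of 27305 genes in the reference (0.0916%). Any start site of a gene counted, and for PDIA6 and CANX the matched window lay well inside the locus. An ERSE-II was found for 3 of 33 (9.09%) and 19 of 27305 (0.0696%). The element was first described in such genes, so this share is background and not a result. No full match overlapped another. The shorter CCACG, which both elements contain, occurred in 25 of 33 genes (75.8%) and in 42.1% of all genes, and CCAAT, which the ERSE contains and the ERSE-II holds in reverse, in 27 of 33 (81.8%) and 39.7%. The elements of genes not printed above are given here in the direction of the motif, to let their spacers be compared with that of HSPA5 (chr9:125241391-125241409, minus strand).
HSPA5: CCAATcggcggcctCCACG
CALR (chr19:12938384-12938402, minus strand): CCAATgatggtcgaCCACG
CANX (chr5:179698778-179698796, plus strand): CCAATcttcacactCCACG
CRELD2 (chr22:49918554-49918572, minus strand): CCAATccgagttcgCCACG
PDIA6 (chr2:10812853-10812871, minus strand): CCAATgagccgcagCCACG
HYOU1 (chr11:119057380-119057390, plus strand and chr11:119057274-119057284, the same strand): ATTGGaCCACG
SDF2L1 (chr22:21642114-21642124, minus strand): ATTGGtCCACG

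The counts here stand beside 25.1% lower and 25.5% higher among all genes tested, with a median of -0.01. Of the 10 genes with an ERSE or ERSE-II, 8 fell and 2 did not pass, with log2 fold changes from -2.02 to 0.06 and a median of -0.58. Among the 23 with neither, 13 fell and 3 rose while 7 did not pass, from -1.27 to 0.73 with a median of -0.21. HSP90B1, with 2 full matches, fell by 0.16 on the log2 scale and HSPA5, with 1 full match, by 2.02. DERL2, DNAJC3 and DNAJB11, which fell by 1.27, 1.03 and 0.92, had no full match in their windows. Only exact matches were searched, so sites that differ in any fixed letter or in spacing were not counted. Outside the set, 34 genes had either element, of which 20 were tested: 12 did not pass, and 4 fell and 4 rose (median -0.08). Those that fell were ERO1B, an oxidase of disulfide isomerases, the glycan-building gene ALG12, which overlaps CRELD2 by 292 bases on the opposite strand, SYNPO and CNKSR1. Those that rose were ZNF143 (0.772), SHCBP1 (0.613), RUVBL2 (0.488) and PLS3 (0.395). The genes of both directions were named after their values were seen. A match is a run of letters and was not tested for binding or use.

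Among the other chaperones and lectins, 4 of 6 fell and none rose, against 25.1% lower and 25.5% higher among all genes tested. HSP90B1, the Hsp90 of the ER, was at 864, 873 and 834 CPM in siZNF514 and 996, 973 and 907 CPM in nc. The groups did not overlap, but the fall was small (log2 fold change -0.16, SE 0.04, edgeR adjusted p = 0.0129) and its call was lost without siZNF514 replicate 3 (-0.14, edgeR adjusted p = 0.0508). CALR, the soluble lectin calreticulin, was at 466, 474 and 449 CPM in siZNF514 and 669, 613 and 606 CPM in nc (-0.44, SE 0.05, edgeR adjusted p = 0.000263). HYOU1, a large Hsp70 relative that exchanges nucleotide on HSPA5, was at 263, 186 and 244 CPM in siZNF514 and 367, 297 and 367 CPM in nc (-0.57, SE 0.14, edgeR adjusted p = 0.0116). Both were lower in every siZNF514 library than in any nc library. UGGT1, the glucosyltransferase that returns misfolded glycoproteins to the lectins, averaged 174 ± 5.29 CPM in siZNF514 and 195 ± 5.59 CPM in nc (-0.16, SE 0.04, edgeR adjusted p = 0.0182), a call lost without siZNF514 replicate 1 (-0.13), siZNF514 replicate 2 (-0.15), nc replicate 2 (-0.14) or nc replicate 3 (-0.16).

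CANX, the membrane-bound lectin calnexin, was at 1130, 1147 and 1073 CPM in siZNF514 and 1364, 1376 and 655 CPM in nc. The low value was in nc replicate 3 alone, and with it the gene did not pass (-0.02, SE 0.26, edgeR adjusted p = 0.957). Without that library its log2 fold change was -0.29 (SE 0.04, edgeR adjusted p = 0.00165), so its result rests on 1 library. HSPA13, another Hsp70 family member of the ER, averaged 87.1 ± 2.26 CPM in siZNF514 and 87.3 ± 4.75 CPM in nc, with a 95% interval of the log2 fold change of -0.13 to 0.13.

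Of the 8 co-chaperones and cofactors, which work with HSPA5 or beside it, 7 fell, with a median log2 fold change of -0.62. Of all genes tested, 25.1% were lower. DNAJC3 (p58IPK), a J-domain protein of the ER lumen, was at 31.7, 30.5 and 30.7 CPM in siZNF514 and 61.1, 62.1 and 66.4 CPM in nc (-1.03, SE 0.06, edgeR adjusted p = 2.49e-05). DNAJB11 (ERdj3), which hands unfolded chains to HSPA5, was at 74.9, 73.5 and 84.3 CPM in siZNF514 and 155, 152 and 135 CPM in nc (-0.92, SE 0.08, edgeR adjusted p = 0.000102). For each of them the highest siZNF514 library was well below the lowest nc library. SDF2L1, which works with DNAJB11, was at 39.9, 38.2 and 36.6 CPM in siZNF514 and 56.1, 60.2 and 60.04 CPM in nc (-0.62, SE 0.06, edgeR adjusted p = 0.000211). MANF, a secreted cofactor that binds HSPA5, averaged 64.7 ± 2.58 CPM in siZNF514 and 102.8 ± 9.26 CPM in nc (-0.67, SE 0.07, edgeR adjusted p = 0.000369).

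DNAJB9 (ERdj4), a J-domain protein that promotes degradation and keeps IRE1 inactive, was at 19.1, 23.1 and 22.2 CPM in siZNF514 and 34.7, 31.1 and 33.2 CPM in nc (-0.62, SE 0.09, edgeR adjusted p = 0.00147). CRELD2, a stress-induced ER protein, was at 12.5, 12.2 and 16.1 CPM in siZNF514 and 21.9, 19.1 and 20.9 CPM in nc (-0.60, SE 0.13, edgeR adjusted p = 0.00762). Neither overlapped between groups. DNAJC10 (ERdj5), a disulfide reductase with a J domain, fell less (-0.21, SE 0.06, edgeR adjusted p = 0.0226), a call lost without siZNF514 replicate 2 (-0.17), siZNF514 replicate 3 (-0.19) or nc replicate 3 (-0.16). SIL1, a nucleotide exchange factor of HSPA5, averaged 37.1 ± 4.17 CPM in siZNF514 and 41.4 ± 3.33 CPM in nc and did not pass (-0.16, SE 0.10, edgeR adjusted p = 0.231), though with total counts as the scaling it did (-0.28, edgeR adjusted p = 0.0499). SIL1 lies across MATR3 on the other strand, and DNAJB11 overlaps TBCCD1 there over 3141 bases. DNAJB9 overlaps THAP5 by 183 bases and PNPLA8 by 99 bases on the opposite strand, and CRELD2 overlaps ALG12. Without known strand use, some reads of these 4 genes could belong to those neighbours.

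**Figure D2:**
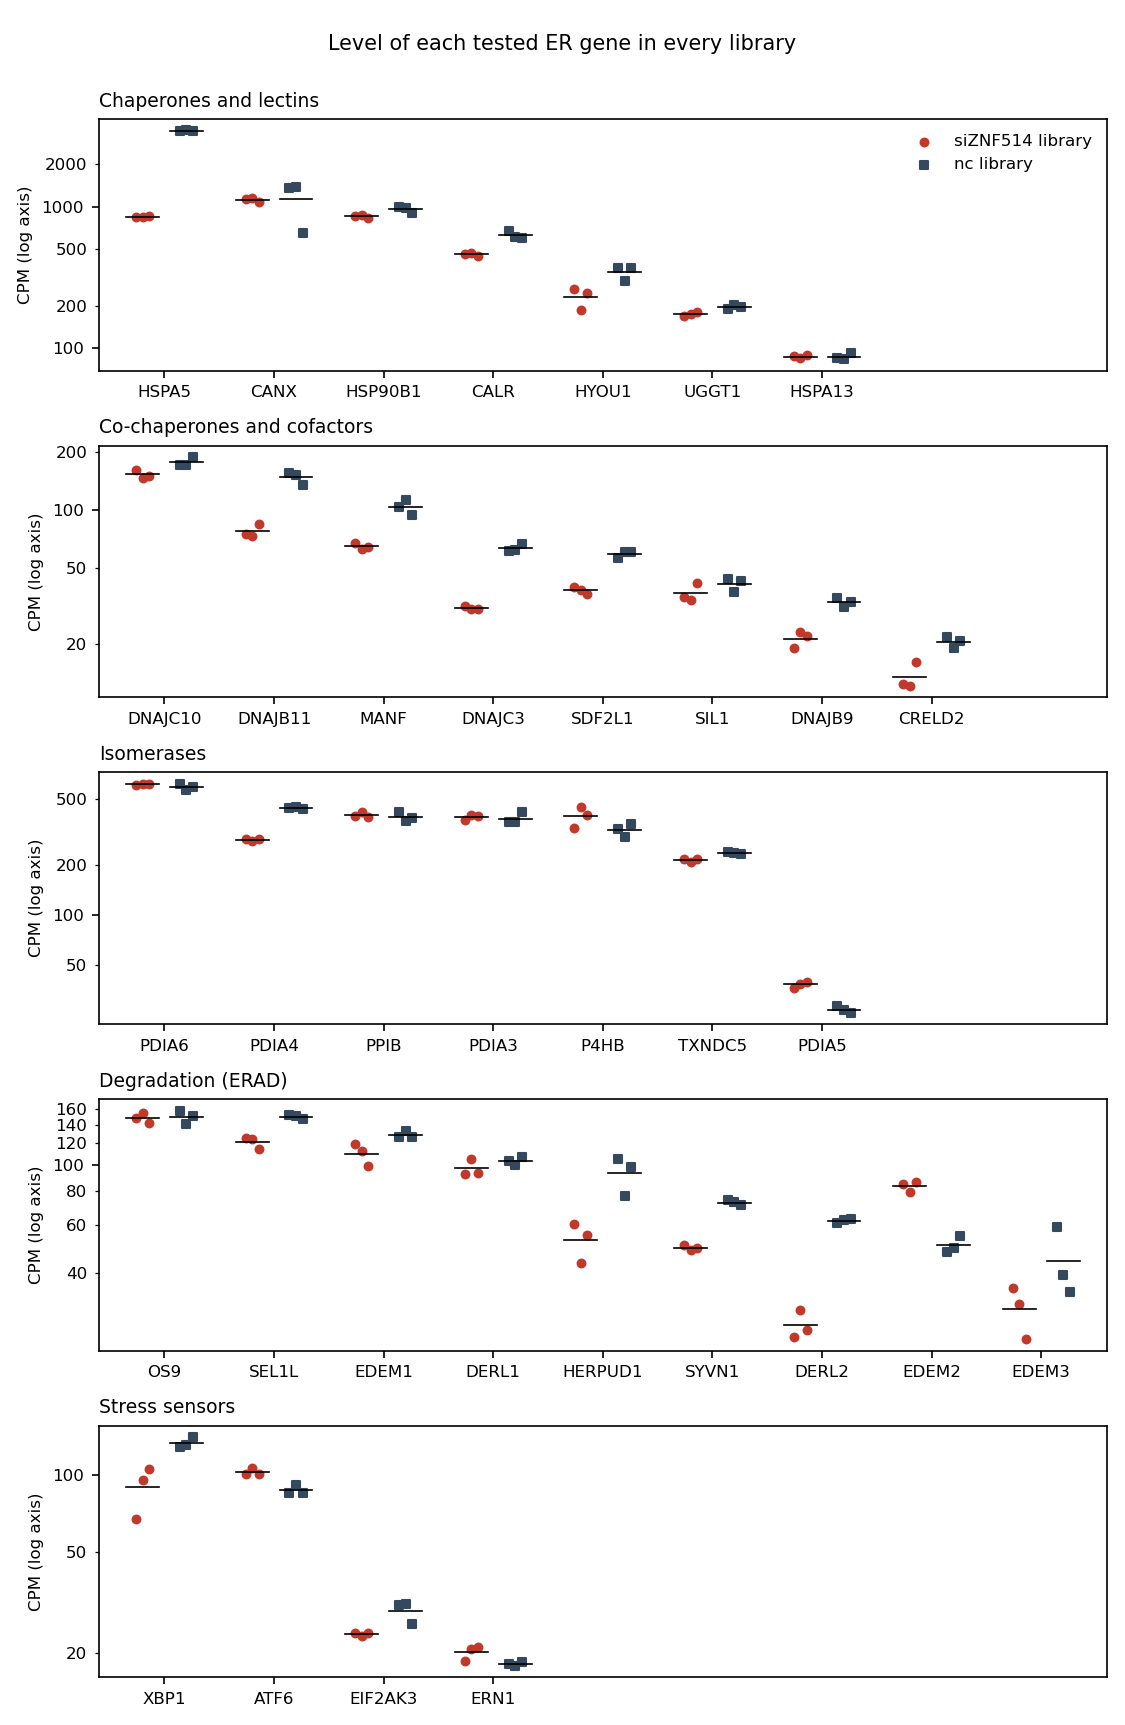
Level of each tested ER gene in every library, in CPM on a log axis, with 1 panel per role and genes ordered by their nc mean. Circles are siZNF514 libraries, squares nc libraries and short bars the group means, and the gap between groups is widest for HSPA5 (852 CPM in siZNF514, 3444 CPM in nc).

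Of the 7 isomerases, 2 fell (28.6%), 1 rose (14.3%) and 4 did not pass, against 25.1% lower and 25.5% higher among all genes tested. PDIA4, a multi-domain disulfide isomerase, was at 286, 278 and 289 CPM in siZNF514 and 439, 449.9 and 433 CPM in nc (-0.63, SE 0.03, edgeR adjusted p = 2.02e-05). PDIA5, a low-abundance member of the same family, rose, with 36.6, 38.7 and 39.5 CPM in siZNF514 and 28.3, 26.8 and 25.9 CPM in nc (0.50, SE 0.07, edgeR adjusted p = 0.000965). Both pairs of groups were fully apart, in opposite directions. The locus of PDIA5 overlaps SEC22A on the same strand over 23301 bases, so shared reads cannot be told apart. SEC22A averaged 286 counts in siZNF514 and 261.3 in nc. TXNDC5 averaged 214 ± 5.05 CPM in siZNF514 and 236 ± 2.88 CPM in nc (-0.14, SE 0.04, edgeR adjusted p = 0.0185), a call lost without siZNF514 replicate 2 (-0.11), nc replicate 1 (-0.13) or nc replicate 2 (-0.13).

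P4HB, the founding protein disulfide isomerase, was at 335, 450.0 and 401 CPM in siZNF514 and 329, 295 and 356 CPM in nc (0.27, SE 0.11, edgeR adjusted p = 0.0789). Its lowest siZNF514 library, replicate 1, lay within the nc range, and without it P4HB passed at 0.39 (edgeR adjusted p = 0.0145). Without siZNF514 replicate 2 it was at 0.18 and did not pass (edgeR adjusted p = 0.205). The intervals of the log2 fold change were -0.12 to 0.18 for PDIA3, the isomerase that works with the lectins, -0.02 to 0.15 for PDIA6 and -0.10 to 0.17 for PPIB, the prolyl isomerase cyclophilin B. PDIA3P1, a pseudogene of PDIA3 with 18.9% as many counts as its parent, could share reads with it.

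In ERAD, 5 of 9 tested genes fell, 1 rose and 3 did not pass, against 25.1% lower and 25.5% higher among all genes tested. DERL2, a membrane channel protein, was at 23.4, 29.2 and 24.8 CPM in siZNF514 and 61.2, 62.5 and 63.2 CPM in nc, the second lowest fold change of the set (-1.27, SE 0.09, edgeR adjusted p = 4.84e-05). HERPUD1, a scaffold of the ubiquitin ligase complex, was at 60.4, 43.5 and 55.0 CPM in siZNF514 and 105, 76.5 and 97.9 CPM in nc (-0.81, SE 0.15, edgeR adjusted p = 0.00394). SYVN1, the ligase HRD1, was at 50.6, 48.5 and 49.5 CPM in siZNF514 and 73.9, 72.9 and 71.1 CPM in nc (-0.55, SE 0.05, edgeR adjusted p = 0.000144). None of these overlapped between groups. SEL1L, the adaptor of SYVN1, averaged 121 ± 6.21 CPM in siZNF514 and 149.8 ± 2.5 CPM in nc (-0.31, SE 0.05, edgeR adjusted p = 0.00214). The locus of SYVN1 overlaps MRPL49, which averaged 453 counts in siZNF514 and 967 in nc, and FAU, and that of DERL2 overlaps MIS12 (279.7 counts on average in siZNF514 and 443.7 in nc), so shared reads cannot be told apart.

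The 3 EDEM genes, which encode mannosidase-like proteins that mark glycoproteins for degradation, went different ways. EDEM2 rose, with 85.1, 79.6 and 86.3 CPM in siZNF514 and 47.7, 49.3 and 54.7 CPM in nc (0.73, SE 0.07, edgeR adjusted p = 0.000177), the highest fold change of the set. EDEM1 was at 119, 113 and 98.5 CPM in siZNF514 and 126, 132 and 126 CPM in nc (-0.22, SE 0.07, edgeR adjusted p = 0.0366), and its call was lost under each omission of 1 library (-0.23 to -0.14) except that of siZNF514 replicate 1. EDEM3 was at 35.1, 30.8 and 22.9 CPM in siZNF514 and 59.1, 39.2 and 34.2 CPM in nc, with overlapping groups, and did not pass (-0.58, SE 0.23, edgeR adjusted p = 0.0755), though without nc replicate 3 it did (-0.73). Without nc replicate 1 its log2 fold change was -0.31, and without siZNF514 replicate 3 it was -0.41. DERL1 and the lectin gene OS9 did not pass, with 95% intervals of -0.24 to 0.06 for DERL1 and -0.15 to 0.12 for OS9. With total counts as the scaling DERL1 passed at -0.22 (edgeR adjusted p = 0.0212).

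Of the 4 sensor genes, 2 fell, 1 rose and 1 did not pass, against 25.1% lower and 25.5% higher among all genes tested. XBP1, the transcription factor made active by IRE1 splicing, was at 67.6, 95.5 and 106 CPM in siZNF514 and 130, 132 and 141 CPM in nc (-0.58, SE 0.15, edgeR adjusted p = 0.0163). The siZNF514 libraries were uneven, replicate 1 being lowest, and the call was lost without nc replicate 3 (-0.54). Counts per gene do not separate spliced from unspliced XBP1. EIF2AK3 (PERK) was at 23.9, 23.4 and 24.0 CPM in siZNF514 and 30.9, 31.0 and 25.96 CPM in nc (-0.30, SE 0.09, edgeR adjusted p = 0.0273), and lost its call under 5 of the 6 omissions of 1 library (-0.30 to -0.26).

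ATF6 rose, with 101, 106 and 101 CPM in siZNF514 and 85.2, 92.0 and 85.1 CPM in nc (0.23, SE 0.05, edgeR adjusted p = 0.00832), but it did not pass with total counts as the scaling (0.11, edgeR adjusted p = 0.119). ERN1 (IRE1) averaged 20.1 ± 1.35 CPM in siZNF514 and 18.1 ± 0.32 CPM in nc, with every siZNF514 library above every nc library, and did not pass (0.15, SE 0.09, edgeR adjusted p = 0.174). The membrane sensors ATF6, ERN1 and EIF2AK3 had log2 fold changes from -0.30 to 0.23, against -2.02 for HSPA5.

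To test whether HSPA5 changed differently from the others, the same edgeR model was fitted with the HSPA5 count of each library in place of its size, so that each coefficient is a gene's log2 change minus that of HSPA5. All 34 other tested genes of the set were higher relative to HSPA5 (edgeR adjusted p at most 0.000661), but so were 95.1% of all genes tested, and 0.456% were lower relative to it. The smallest difference was 0.74 (95% interval 0.53 to 0.96, edgeR adjusted p = 9.01e-05) for DERL2, followed by 0.99 (0.84 to 1.14) for DNAJC3 and 1.09 (0.91 to 1.27) for DNAJB11. For HSP90B1 the difference was 1.85 (1.74 to 1.96), for CALR 1.57 (1.44 to 1.70), for PDIA4 1.38 (1.3 to 1.47) and for EDEM2, the largest, 2.74 (2.58 to 2.91). The adjusted p-values share the error of the HSPA5 counts.

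HSPA5 made up 17.2, 17.1 and 17.6% of the summed FPKM of the 36 genes in siZNF514 and 41.5, 42.9 and 44.0% in nc. The sum was 1202 ± 8.72 FPKM in siZNF514 and 2148 ± 53.6 FPKM in nc, and without HSPA5 it was 994 ± 9.93 FPKM in siZNF514 and 1229 ± 57.2 FPKM in nc (SD, n = 3 each). FPKM were scaled to library totals, without the TMM factors (0.954 to 0.962 in siZNF514, 1.043 to 1.049 in nc). FPKM in siZNF514 therefore read lower against nc than CPM do. PPIB was at 155 FPKM in siZNF514 and 165 in nc, but at 399.6 CPM in siZNF514 and 390.1 in nc. By role, the sum in siZNF514 was 40.9% of that in nc for chaperones and lectins (79.1% without HSPA5), 58.4% for co-chaperones, 86.2% for isomerases, 88.9% for ERAD and 82.1% for sensors. The order of levels per length began with HSPA5 (208 FPKM), PPIB (155), HSP90B1 (108) and CANX (104) in siZNF514, and with HSPA5 (919), PPIB (165), CALR (134) and HSP90B1 (131.5) in nc. The low end held ERN1 (1.56 FPKM in siZNF514 and 1.53 in nc) and CRELD2 (1.73 FPKM in siZNF514 and 2.87 in nc), with DERL3 at or near 0. These orders and shares depend on the gene lengths behind the FPKM. Those lengths were 3908 bases for HSPA5, 7605 for HSP90B1, 10302 for CANX and 7505 for CRELD2. In CPM, CANX (1117) and HSP90B1 (857) were above HSPA5 (852) in siZNF514. In nc, HSPA5 was at 3444 CPM and CANX at 1132 CPM. Across the 34 tested genes other than HSPA5, Spearman's rho of the fold change with the nc level was 0.119 (a description, over genes that share the 6 libraries).

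**Figure D3:**
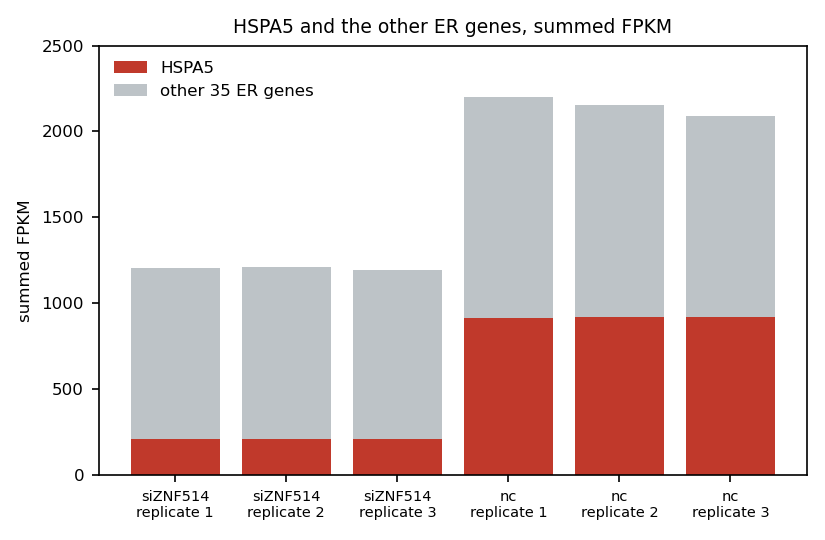
Summed FPKM (y axis, from 0) of the 36 ER genes in each library, siZNF514 on the left and nc on the right, with the part from HSPA5 below and that of the other 35 genes above. HSPA5 holds 17.1 to 17.6% of the bar in siZNF514 and 41.5 to 44.0% in nc. FPKM are scaled to library totals, without TMM factors.

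Other genes of the secretory pathway, taken as lists by function, had median log2 fold changes from -0.05 to 0.11. Beside 25.1% lower and 25.5% higher among all genes tested, with a median of -0.01, retrieval and ER exit genes had 8 of 19 lower and 6 higher (median -0.05), the translocon and signal peptidase 5 of 18 lower and 7 higher (-0.04), and N-glycan transfer and trimming 3 of 17 lower and 6 higher (0.11). Retrieval genes higher numbered 3 without nc replicate 1. Translocon genes lower numbered 3 without siZNF514 replicate 3, nc replicate 1 or nc replicate 2, and those higher numbered 4 without nc replicate 2 or nc replicate 3. KDELR3, a receptor that returns escaped ER proteins by their KDEL-type ends, fell steeply, with 5.81, 8.13 and 7.40 CPM in siZNF514 and 26.2, 25.6 and 26.4 CPM in nc (-1.87, SE 0.13, edgeR adjusted p = 4.78e-05). Its difference from HSPA5 did not pass (0.14, 95% interval -0.17 to 0.45, edgeR adjusted p = 0.320). The paralogs KDELR1 (0.18, edgeR adjusted p = 0.0421) and KDELR2 (-0.05, edgeR adjusted p = 0.456), chosen after their values were seen, did not fall. The cargo receptor gene TMED10 (-0.40) and the COPII coat gene SEC24A (-0.45) fell. TRAM1 fell (-0.48), and the channel subunit SEC61G (0.58) and SSR3 (0.34) rose. In the glycan list, the oligosaccharyltransferase subunits RPN2 (0.51) and OST4 (0.77) rose and KRTCAP2 (-0.53) fell.

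Beside the same 25.1% lower and 25.5% higher among all genes tested, other oxidoreductases had 6 of 15 tested genes lower and 5 higher (median 0.08). The 2 oxidases that recharge disulfide isomerases parted: ERO1A rose, with 182 ± 6.75 CPM in siZNF514 and 119.5 ± 2.66 CPM in nc (0.61, SE 0.05, edgeR adjusted p = 6.82e-05), and ERO1B, picked with its values in view, fell (-0.70, SE 0.09, edgeR adjusted p = 0.000545). The sulfhydryl oxidase QSOX1 rose (0.86) and TMX1 fell (-0.48). Other ERAD genes had 6 of 23 lower and 6 higher (-0.05), among them FAF2 (-0.59), RNF5 (0.44) and HERPUD2 (0.50), a paralog that rose while HERPUD1 fell. Other regulators of the unfolded protein response had 2 of 17 lower and 6 higher (0.11), with CREB3 (-0.56) and CREB3L4 (-0.92) lower and TMBIM6 (0.50) higher. ER calcium genes had 3 of 14 lower (1 without siZNF514 replicate 3 or nc replicate 1) and 4 higher (-0.05), with the calcium pump gene ATP2A2 lower (-0.37) and ITPR3 (0.33) and RCN2 (0.30) higher.

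Of 15 chaperones outside the ER, 10 were higher and 4 lower (median 0.20; with total counts as the scaling, 8 higher and 4 lower, and in the limma fits on FPKM, 6 to 7 higher and 4 lower), including HSP90AA1 (0.54), HSPE1 (0.81) and HSPD1 (0.45). Of all genes tested, 25.1% were lower and 25.5% higher. Among 15 genes of the PERK arm and integrated stress response, 5 fell and 7 rose (0.17), with 3 lower without nc replicate 1 or nc replicate 3. DDIT4 rose (1.07), and EIF2AK2 (-0.94) and CEBPB (-0.52) fell. DDIT3 (CHOP), a transcription factor induced through PERK, was at 21.5, 13.2 and 22.6 CPM in siZNF514 and 77.9, 43.2 and 47.6 CPM in nc (-1.56, SE 0.28, edgeR adjusted p = 0.00324), and its partner TRIB3 fell as well (-1.03, SE 0.28, edgeR adjusted p = 0.0197). Both were chosen after their values were seen, while ATF4, which acts upstream of them, rose (0.38, SE 0.04, edgeR adjusted p = 0.000240), also chosen so.

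**Figure D4:**
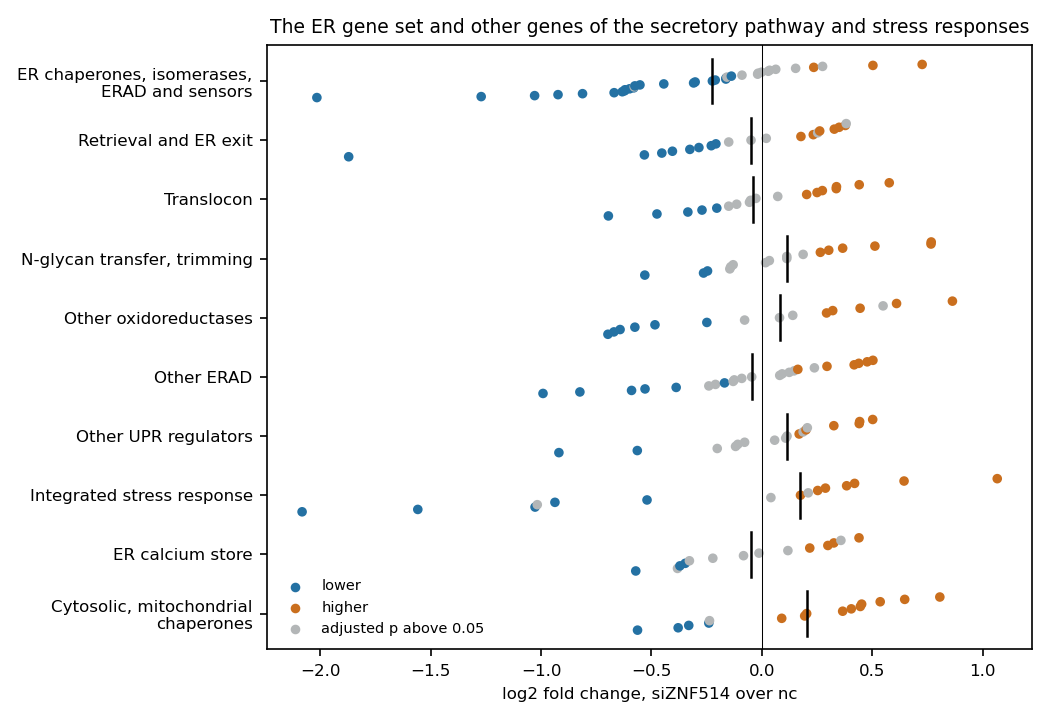
Log2 fold change (siZNF514 over nc, x axis) of each tested gene, with 1 row per list, the ER gene set on top and black bars at the list medians. Blue genes were lower and orange genes higher at an adjusted p of 0.05, and the ER gene set has the lowest median, -0.22, against 0.20 for chaperones outside the ER.

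Directions depended in part on scaling. With total counts in place of TMM factors, the median of all fold changes moved by -0.13, all genes split into 4775 lower and 2493 higher in place of 3583 and 3629, and the ER set into 24 lower and 2 higher. HSPA5 was at -2.14 under that scaling. The number higher was then 2 each for retrieval and ER exit, the translocon and N-glycan genes and 3 for other regulators of the unfolded protein response, and the number lower was 10 for other ERAD genes, 4 for those regulators and 5 for ER calcium genes, the last also 5 in the DESeq2 Wald test. Leaving out single libraries gave 16 to 19 genes of the set lower and 3 to 4 higher.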

How the data were processed

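Total RNA of 6 KYSE-150 libraries was made into cDNA libraries and sequenced on an Illumina instrument, per the labels' protocols. Per the submitters' processing notes, HISAT2 2.0.4, StringTie 1.3.3b, edgeR and hg38 were used, with no role or order given. No source used here states the annotation release, the strand setting or a filter. The deposited count columns hold whole numbers per gene. The deposited FPKM columns equalled count over 1 length per gene and the library total, with lengths within 0.0665% across libraries. Positions of the 36 genes overlapped those of GENCODE 29 on GRCh38 in 36 cases.

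Counts were filtered with filterByExpr (minimum count 10, total 15), which kept 14250 genes, scaled by TMM and tested with the edgeR 4.0.16 quasi-likelihood F test in R 4.3.3. Each SE was taken as the absolute log2 fold change divided by the square root of F. The model relative to HSPA5 used the same filter and test, with the HSPA5 count in place of library size and TMM factor. Both were run on simulated data in which few genes changed and HSPA5 had a small spread. Those data cannot test the scaling where many genes change, or the error of the HSPA5 counts. Alternatives used limma 3.58.1 and DESeq2 1.42.0, other scalings and filters, FPKM with pseudocounts of 0.1, 1 and 0.01, a replicate block, and omission of each library. The 36 genes, the 9 lists (159 symbols, each in the table) and the tests were chosen with earlier results of these data known. Each of the 36 genes is named, as are, from every list, the 3 tested genes lowest in p-value, and other genes are said to have been chosen after their values were seen. The ERSE-II search and the comparison with genes at 1000 CPM or more were added after the values were seen. Protein sequences were not used here. Depths of 12175259 to 14318909 counts per library make 1 count 0.0733 CPM in siZNF514 replicate 3. No pair of replicates agreed within sampling noise (chi-square per degree of freedom 7.97 to 9.97 within groups).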

Additional observations from a re-analysis of the deposited data

How the results depend on the processing

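The log2 fold change of HSPA5 ranged from -2.14 (total counts) to -1.995 (no count filter) and passed under every alternative run. The number of ER genes called lower was 17 with no count filter, 24 with total counts, 22 in each limma fit on FPKM and 21 under the other settings that kept all libraries, and 16 to 19 with 1 library left out. The number higher was 2 to 4. No count over the set or over all genes moved by over 1.5 times. Replicate numbers did not pair the libraries (correlations 0.00749, 0.0413 and -0.0358 of same-numbered libraries), and with the replicate block 21 genes were lower and 3 higher. Under the block EDEM3 passed (-0.56) and EIF2AK3 did not (-0.30).

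Directions turned only for genes that had not passed, and the cause was not tested. With total counts PDIA3 was at -0.098, PDIA6 at -0.064 and PPIB at -0.092. In the limma fits PDIA3 was at -0.093, -0.094 and -0.095, PDIA6 at -0.062 and -0.063 and PPIB at -0.089 and -0.090. With a mean count of at least 50, PDIA3 was at -0.006 and PPIB at 0.000. With no filter HSPA13 was at 0.018 and OS9 at 0.003, and with the block CANX was at 0.056. Leaving out 1 library gave -0.03 to 0.045 for HSPA13, -0.293 to 0.147 for CANX, -0.006 to 0.104 for PDIA3, -0.006 to 0.093 for PPIB and -0.056 to 0.023 for OS9. Of the other values, 32 lost and 11 gained a call and 49 counts over lists moved by over 1.5 times.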

Other observations

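NUPR1, a stress-induced gene of the PERK arm chosen after its values were seen, was called lower (-2.08, SE 0.69, edgeR adjusted p = 0.0391). However, siZNF514 replicate 3 was at 2.13 CPM, against 0.157 and 0.23 CPM in replicates 1 and 2, and 3.65 CPM on average in nc.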
